A study of Mus musculus with 11 samples.

Results

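The genes described here are Trp53, which encodes the transcription factor p53, and 8 of its established targets: Cdkn1a, Mdm2, Bbc3, Ccng1, Trp53inp1, Phlda3, Bax and Sesn1. These 9 genes were taken by name, and all 9 were found in the bulk table, which lists 12588 genes, and in all 5 single-cell tables, which together name 29686. The series comprises 11 samples of mouse embryonic stem (ES) cells. It compares growth in agarose microgels with growth on tissue-culture plastic, and lines that the labels describe as overexpressing plakoglobin, the junctional catenin encoded by Jup, with wild type.

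Bulk RNA sequencing by Smart-seq2, which reads whole transcripts, covered 6 libraries of about 1000 cells each, 3 from microgels and 3 from plastic. All 6 were labelled wild type. They were of the line Rex1GFPd2, an ES reporter line in which the Rex1 (Zfp42) locus drives a short-lived green fluorescent protein. All 6 were grown in 2i/LIF, a medium with the cytokine LIF plus a MEK inhibitor and a GSK3 inhibitor. Single cells were read by inDrop, a droplet method that counts transcripts at their 3′ ends by unique molecular identifiers (UMIs). It covered 5 libraries, 1 per condition. Of these, 3 were wild-type E14 cells, grown in 2i/LIF on plastic, or with serum/LIF either on plastic or in microgels. The other 2 carried the genotype labels PGLOW and PGHIGH, with plakoglobin expressed from the constitutive CAG promoter, and were grown on plastic in serum/LIF. They are called the libraries labelled JupLow and JupHigh. Their parent line is not named in the labels, and so a difference between them and E14 cannot be told apart from a difference between lines.

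p53 is a transcription factor that is kept scarce by the ubiquitin ligase MDM2 and that accumulates after DNA damage and other stress. It activates genes that halt the cell cycle, such as Cdkn1a, genes that promote death through mitochondria, such as Bax and Bbc3, and Mdm2 itself, which closes a negative feedback loop. ES cells are known for abundant Trp53 mRNA and protein and for a short G1 phase. Because p53 is controlled mainly through its protein, the level of Trp53 mRNA alone does not report its activity.

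p53 binds DNA as a tetramer at a pair of decamers known as the p53 consensus. To show which members carry this motif near a start site, RefSeq promoters of build GRCm38.p6 were searched from 250 bases before to 50 bases after each start. All 20 bases of a pair without a spacer were compared with the consensus, which reads the same on both strands. Of the 9 members, 8 matched an entry, with 12 windows, while Trp53inp1 had none. A match of at least 19 bases out of 20 was present for 2 members, Cdkn1a and Ccng1, and in 0.0883% of all 32851 windows. The promoter stretches that hold these matches are printed 5′ to 3′ on the strand of the gene, with the 20 matched positions in capitals. The Cdkn1a stretch is chr17:29090888-29090978 on the plus strand, and the Ccng1 stretch is chr11:40755422-40755521 on the minus strand.
Cdkn1a: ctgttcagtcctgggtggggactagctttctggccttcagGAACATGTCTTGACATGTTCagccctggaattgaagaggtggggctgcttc
Ccng1: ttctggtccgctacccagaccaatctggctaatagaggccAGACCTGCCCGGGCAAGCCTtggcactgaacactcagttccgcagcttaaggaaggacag

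The Cdkn1a match covers bases -51 to -32 from the nearer of its RefSeq start sites. It lies 2841 to 2822 bases before the other start, and this distal element is the textbook p53 site of the gene. The Ccng1 match covers bases -195 to -176 from its start. The closest 20 bases of 5 of the 8 members, with capitals where the base fits the consensus and lower case where it does not, were as follows.
Cdkn1a: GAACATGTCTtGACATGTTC
Ccng1: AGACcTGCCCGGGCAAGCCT
Trp53: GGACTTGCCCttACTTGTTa
Bax: AGcaTAtCCCAGGCAAGCTT
Mdm2: GAACTTGCCTAGcgAccaTT

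By GENCODE M21, on GRCm38, Cdkn1a spans chr17:29090976-29100727 on the plus strand and Ccng1 spans chr11:40748552-40755311 on the minus strand. Trp53 spans chr11:69580359-69591873 on the plus strand and Mdm2 spans chr10:117688875-117710758 on the minus strand. Sesn1 is also on chromosome 10, Bax and Bbc3 on 7, Trp53inp1 on 4 and Phlda3 on 1, all protein-coding.

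In Cdkn1a and Ccng1 a single base departs from the consensus. Trp53, Bax, Bbc3 and Sesn1 reached 17 of 20 bases, which 6.29% of all windows did as well. Mdm2 and Phlda3 reached 15. The known p53 elements of Mdm2 lie inside the gene, downstream of this window. A match of letters is a description and not a binding site.

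Several facts of the libraries bear on all values below. Jup stood at 36.7 CPM (28.8 to 46.0) in serum/LIF wild type, 37.9 (31.1 to 45.7) in JupLow, 46.7 (42.2 to 51.6) in 2i/LIF and 47.8 (41.5 to 54.8) in JupHigh. The intervals overlap, and so the Jup counts separate neither labelled line from wild type. Whether the introduced plakoglobin carries the 3′ end counted here is not given in the sources used here. CPM is the UMI count scaled to the customary common total, and ranges in parentheses after CPM are exact Poisson intervals at 95%. The single-cell libraries held 112 to 2889 cells with at least 1000 UMIs, and 236195 to 8284254 UMIs. The microgel library is the smallest: its table breaks off in mid-row and its barcodes begin only with AAAC to ACCC, while those of the others run to TGTT, and so only a part of that library was analysed here. The wild-type serum/LIF table appears to have been counted differently from the others. Of the genes that overlap an exon on the opposite strand, 6.33% were at least 8-fold lower there than in JupLow, against 2.55% of other genes. Sox2, Tubb3, Sox1 and Neurod1 have no column in that table, and marker sums against it are therefore given over the markers with a column in both tables. All 9 members have a column in every table. Among the members, Cdkn1a shares 273 exon bases with a transcript on the opposite strand, and Bax shares 192 with Gm45808 on its own strand, which had 38 UMIs in serum/LIF wild type and 0 to 5 elsewhere. The part of this counting in the ratios against that table was not tested. The other ES cell markers Pou5f1, Nanog, Zfp42, Esrrb, Utf1, Tdgf1, Dppa4 and Dppa5a were detected in all 5 single-cell libraries. No whole cell barcode was shared by any pair of libraries. With the middle 8 bases left out, pairs shared 0 to 53 barcodes, the most between 2i/LIF and JupHigh. Whether those bases differ by library is not given in the sources used here. The whole barcodes therefore cannot show whether libraries share cells. Bulk libraries held 637235 to 2583256 recovered reads.

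In bulk, gel and plastic cells differed in 4 of the 8 members tested. Mdm2, Ccng1 and Sesn1 were lower in gel and Bax was higher, by limma with Benjamini-Hochberg adjustment over all 7878 genes tested and a threshold of 0.05. Trp53 itself, Cdkn1a, Trp53inp1 and Phlda3 did not pass. The background was high: 18.6% of all genes tested were called lower in gel and 18.3% higher, and 49.5% had groups that did not overlap. Of the 8 members 3 were called lower and 1 higher, and their median log2 fold change was -0.008, against -0.022 over all genes tested. The values are read counts scaled for depth by the authors, and each fold change below is a difference of log2(value + 0.5).

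**Figure D1:**
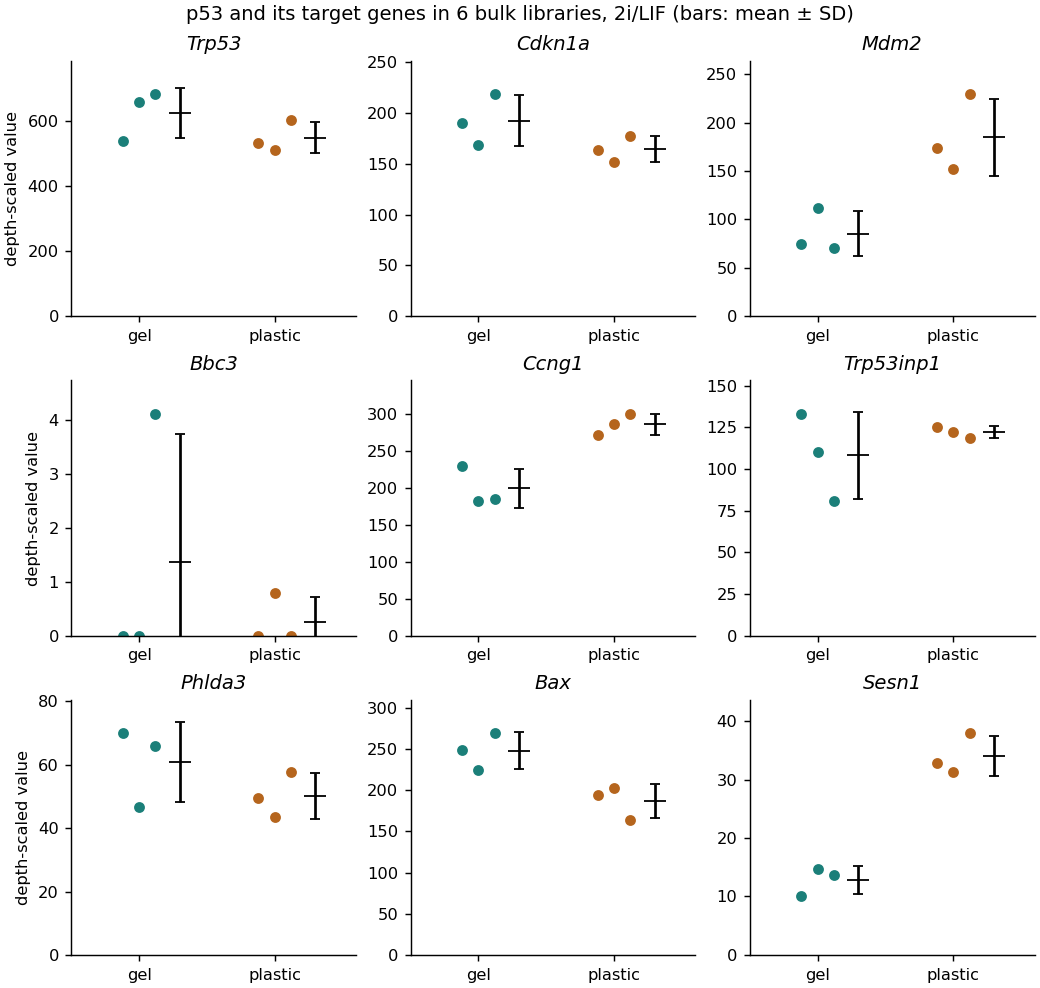
Depth-scaled value (vertical axis, starting at 0) of each of the 9 genes in the 3 gel and 3 plastic bulk libraries, 1 panel per gene. Coloured points are libraries, and black bars are the mean ± SD (n = 3). Gel and plastic points do not overlap for Mdm2, Ccng1, Bax and Sesn1, and overlap for the other 5 genes.

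The values of Trp53 were 538, 658 and 683 in gel and 533, 511 and 603 on plastic. The gel mean was 626 ± 77.3 (SD, n = 3) and the plastic mean 549 ± 48.0 (SD, n = 3). The groups overlapped, since the lowest gel library lay below the highest plastic library. The log2 fold change of 0.19 (SE 0.11) had an adjusted p of 0.183 by limma.

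Mdm2, the ubiquitin ligase that degrades p53 and is at the same time its target, was lower in gel. It read 74.5, 112 and 70.1 in gel and 173, 152 and 229 on plastic. Every gel library lay below every plastic library, and the spread was wide in both groups, at 85.4 ± 22.9 in gel and 185 ± 39.96 on plastic (SD, n = 3). The log2 fold change was -1.12 (SE 0.18), with an adjusted p of 0.000111 by limma.

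Cdkn1a encodes p21, an inhibitor of cyclin-dependent kinases and the main arrest gene downstream of p53. Its values were 191, 168 and 218 in gel and 164, 152 and 178 on plastic. The groups overlapped, and the log2 fold change of 0.22 (SE 0.13) had an adjusted p of 0.180 by limma. Ccng1 encodes cyclin G1, a p53-induced cyclin that recruits a phosphatase to MDM2. It read 230, 183 and 186 in gel and 272, 287 and 301 on plastic. All gel libraries were lower than all plastic libraries. The means were 200 ± 26.6 in gel and 286 ± 14.4 on plastic (SD, n = 3). The log2 fold change was -0.53 (SE 0.12), with an adjusted p of 0.00204 by limma.

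Bax encodes the pore-forming effector of mitochondrial apoptosis and was the member that rose in gel. Its values were 249, 225 and 269 in gel and 194, 203 and 164 on plastic, with no overlap. The log2 fold change was 0.41 (SE 0.12), with an adjusted p of 0.0131 by limma. This call was marginal. It was lost without the third gel library (adjusted p 0.0541) and without the third plastic library (0.05001, just above the threshold). It was also lost with reads thinned to the shallowest library (0.0709) and without an intensity trend in limma (0.0755), in each case with Benjamini-Hochberg adjustment. Bbc3 encodes PUMA, a BH3-only protein that activates BAX. It had 3 reads in a single gel library and 2 in a single plastic library, with 0 in the remaining 4, and was too low to test. Phlda3, an inhibitor of AKT signalling, read 70.0, 46.7 and 66.0 in gel and 49.5, 43.4 and 57.7 on plastic. Its groups overlapped, and its log2 fold change of 0.26 (SE 0.19) had an adjusted p of 0.288 by limma.

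Trp53inp1 encodes a nuclear protein that acts in p53-dependent death and in autophagy. It read 133, 110 and 81.1 in gel and 126, 122 and 118 on plastic. Plastic libraries agreed closely with each other, gel libraries spread around them, and the log2 fold change of -0.20 (SE 0.16) had an adjusted p of 0.336 by limma. Sesn1, a sestrin that restrains the growth kinase complex mTORC1 upon amino acid shortage, had the largest fold change of the members. It read 10.2, 14.7 and 13.7 in gel and 32.8, 31.3 and 38.0 on plastic. These values rest on 9 to 12 reads per gel library and 25 to 80 per plastic library, and the groups did not overlap. The log2 fold change was -1.38 (SE 0.26), with an adjusted p of 0.000477 by limma.

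**Figure D2:**
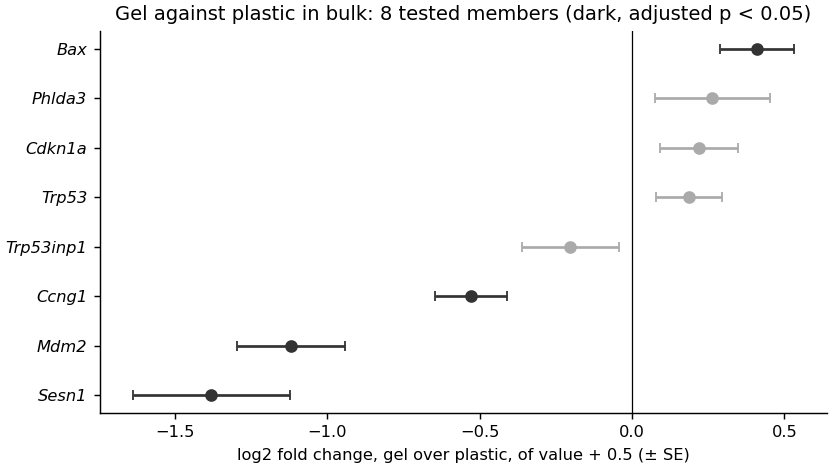
Log2 fold change of gel over plastic (horizontal axis, log2 of value + 0.5) for the 8 members tested in bulk; points are limma estimates and bars are ± SE. Sesn1, Mdm2 and Ccng1 lie below 0 and Bax above (dark, called), and Phlda3, Cdkn1a, Trp53 and Trp53inp1 were not called (grey).

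The calls for Mdm2, Ccng1 and Sesn1 held under every alternative in which they were tested, with log2 fold changes of -1.33 to -0.95, -0.63 to -0.47 and -1.58 to -1.22. In bulk RNA, fewer cells that express a gene and less RNA per cell cannot be told apart. The share of values on ribosomal protein genes was 7.02% to 7.52% in gel and 4.49% to 5.56% on plastic. Its part in these results was not tested. Of the primitive endoderm markers (Gata6, Gata4, Sox17, Sox7, Dab2, Pdgfra and Foxa2) 0 of 7 were listed in the bulk table. Of the 9 ES cell markers, all tested, 5 were higher in gel by limma (Pou5f1, Sox2, Esrrb, Utf1 and Dppa5a) and 2 lower (Nanog and Zfp42), with a median log2 fold change of 0.53. They summed to 7659 to 7933 in gel and 5705 to 6516 on plastic. Of the 5 neural markers 3 were listed, and these summed to 60.5 to 68.8 in gel and 88.8 to 97.2 on plastic. Of them 1 was tested, Tubb3, and it was lower in gel. The part of these marker differences in the member values was not tested. Of the 8 fibroblast markers only 1 was listed in the bulk table, at 0 to 3.39 in gel and 1.25 to 4.55 on plastic, and 0 were tested. Nothing in the labels says that the 3 libraries of a group came from separate cultures, and so p-values measure only the spread between these libraries, which may be technical.

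Per kilobase of annotated exon, the members of the bulk libraries spread over a wide range. On plastic the highest were Trp53 at 136 ± 11.9 (SD, n = 3) and Bax at 119 ± 12.9, whose libraries overlapped. Ccng1 followed at 81.5 ± 4.10. Cdkn1a at 46.3 ± 3.63 overlapped Mdm2 at 36.4 ± 7.86, and Mdm2 in turn overlapped Phlda3 at 32.2 ± 4.59. Below these came Trp53inp1 at 18.9 ± 0.550, Sesn1 at 8.55 ± 0.874 and Bbc3 at 0.123 ± 0.213. In gel, Bax (157 ± 14.2) and Trp53 (155 ± 19.1) overlapped at the top. So did Ccng1 (56.8 ± 7.57) and Cdkn1a (54.2 ± 7.09), and lower down Mdm2 (16.8 ± 4.502) and Trp53inp1 (16.7 ± 4.03). Phlda3 stood between these pairs at 39.0 ± 7.99, and Sesn1 and Bbc3 came last at 3.23 ± 0.605 and 0.647 ± 1.12.

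Other genes of the pathway were read from the same fit. Of 11 regulators of p53 tested, 4 were higher in gel by limma (Mdm4, Usp7, Ep300 and Sirt1) and 0 were lower. Over all genes tested limma called 18.3% higher and 18.6% lower. This is the background for the limma counts of the bulk lists that follow as well. In either direction limma called 2906 genes, edgeR 3158 and DESeq2 2188. Shares of all genes by direction are not given here for edgeR, for DESeq2 or at an unadjusted p under 0.05. Of the regulators, 4 were higher and 1 was lower at an unadjusted p under 0.05. edgeR called 4 higher and 0 lower, and DESeq2 called only 3 higher and 0 lower. Ep300, an acetyltransferase that is a coactivator of p53, rose most. It read 23.7, 29.5 and 26.1 in gel and 6.65, 6.26 and 10.6 on plastic, a log2 fold change of 1.72 (SE 0.32) with an adjusted p of 0.000417 by limma. Sirt1, a deacetylase of p53, read 37.2, 45.4 and 45.3 against 23.3, 30.1 and 27.3. Its log2 fold change was 0.66 (SE 0.21), with an adjusted p of 0.0178 by limma. The median of the 11 was 0.18, against -0.022 over all genes.

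Of 6 other targets linked to arrest, 4 were lower in gel (Btg2, Plk2, Plk3 and Gtse1) and 0 were higher, with a median log2 fold change of -0.48. At an unadjusted p under 0.05, and by edgeR and DESeq2, 0 were higher as well, and DESeq2 called only 1 of the 6 lower. Plk2, a polo-like kinase induced by p53, fell furthest. It read 19.2, 20.9 and 41.2 in gel and 91.4, 83.7 and 100.2 on plastic, a log2 fold change of -1.82 (SE 0.23) with an adjusted p of 1.65e-05 by limma. Plk3, a related kinase, read 20.3, 13.5 and 17.9 against 27.8, 25.4 and 36.4, a log2 fold change of -0.78 (SE 0.26) with an adjusted p of 0.0235. Of 6 targets linked to apoptosis, limma called 0. At an unadjusted p under 0.05, 1 was lower and 0 higher, edgeR called 1 lower, and DESeq2 called 0.

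Targets in repair and metabolism were mixed: of 8 tested, Sesn2 and Rps27l were higher in gel and Ercc5 was lower by limma. edgeR called 2 higher and 1 lower, and DESeq2 called 2 higher and 0 lower, so that the Ercc5 call was lost with it. At an unadjusted p under 0.05, 2 were higher and 2 lower. Sesn2, the paralog of Sesn1, moved opposite to it. It read 31.6, 28.2 and 37.1 in gel and 17.04, 18.4 and 19.7 on plastic, a log2 fold change of 0.79 (SE 0.23) with an adjusted p of 0.0129. Ercc5, a nuclease of nucleotide excision repair, read 14.7, 12.3 and 6.87 against 23.3, 19.6 and 27.3, a log2 fold change of -1.07 (SE 0.32) with an adjusted p of 0.0139. Rps27l, a ribosomal protein paralog, had a log2 fold change of 0.36 (SE 0.13) with an adjusted p of 0.0319. Among the BCL2 family, 3 genes were tested and Mcl1, which restrains BAX and BAK, was higher in gel. Mcl1 read 142, 160 and 115 in gel and 69.0, 67.3 and 74.4 on plastic, a log2 fold change of 0.97 (SE 0.15) with an adjusted p of 8.08e-05 by limma. Of the p53 relatives, Trp73 had 0 to 10 reads per library and was too low to test, and Trp63 was not analysed here in bulk.

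The cell cycle genes that p21 represses through the DREAM complex were mixed too. Of 12 tested, 2 were higher in gel (Birc5 and Mybl2) and 4 lower (Ccnb1, Cdc25c, Cdc20 and Kif23), with a median of -0.065. edgeR called 4 higher and 3 lower, and DESeq2 1 higher and 3 lower, so that the balance of the 2 directions depended on the tool. Ccnb1, the mitotic cyclin B1, fell by 0.67 on the log2 scale (SE 0.097, adjusted p 4.92e-05 by limma). Kif23, a kinesin of cytokinesis, fell by 0.69 (SE 0.15, adjusted p 0.00165). Mybl2, which encodes the cell cycle transcription factor B-MYB, rose by 0.49 (SE 0.14, adjusted p 0.00884), and Birc5, which encodes survivin, rose by 0.32 (SE 0.12, adjusted p 0.0418).

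In single cells the members split into those that were low in both wild type in 2i/LIF and JupHigh and those that were not. With 1 library per condition there is no test and no replicate check, and intervals cover counting error only. The 4 comparisons with wild type in serum/LIF share that library, and the 3 with JupHigh share that one, and so their values are given side by side and do not support each other.

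**Figure D3:**
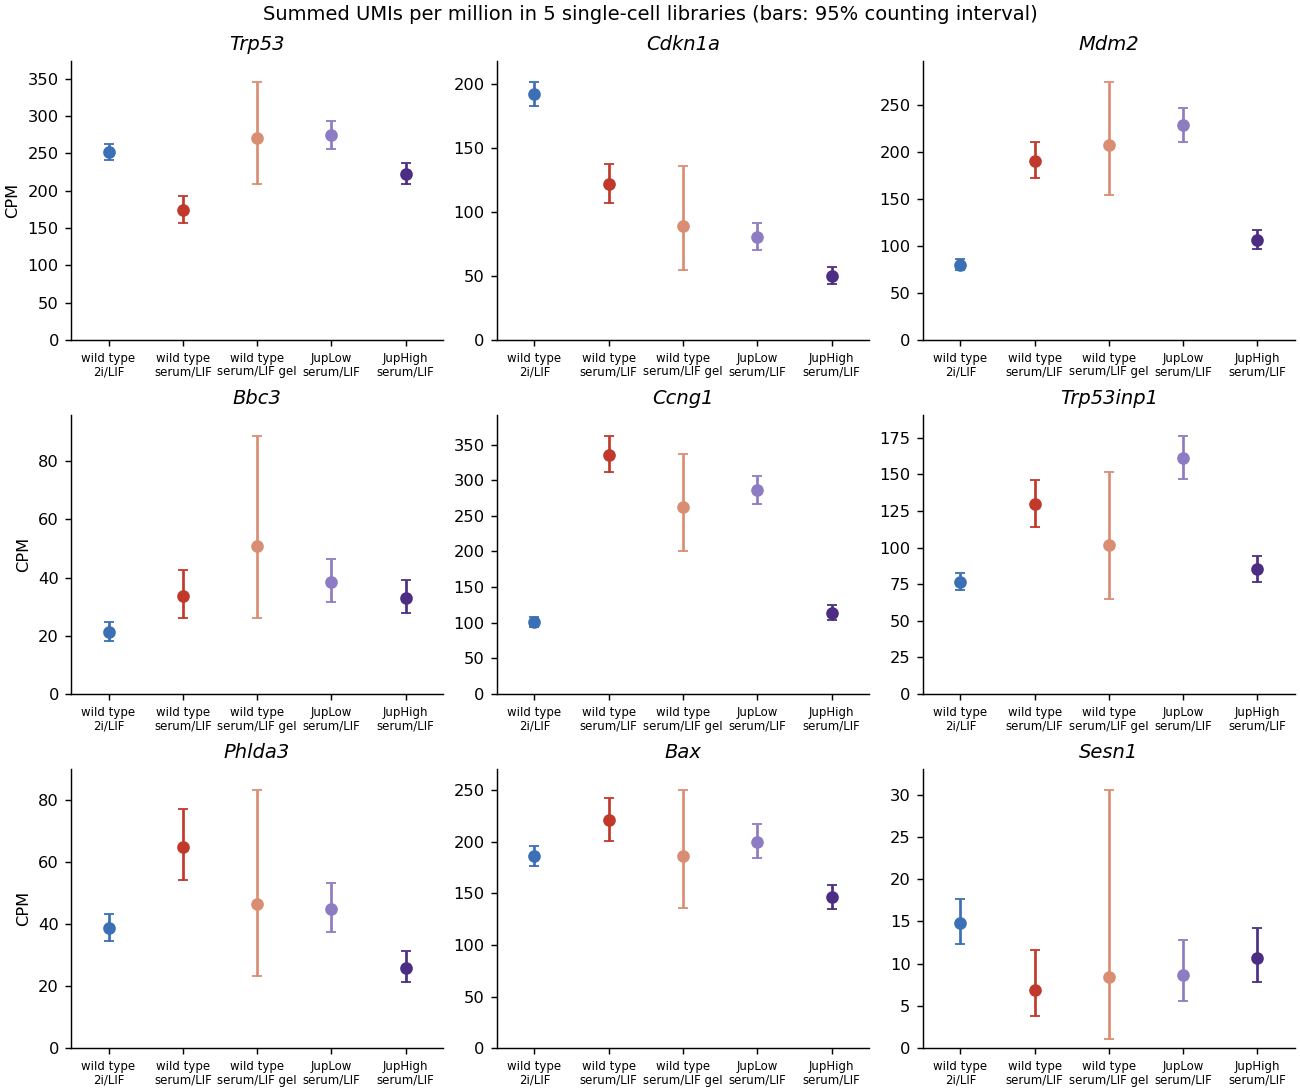
Summed UMIs scaled to a common total (CPM, vertical axis starting at 0) of the 9 genes in the 5 single-cell libraries, 1 point per library, with exact 95% Poisson intervals. Mdm2, Ccng1 and Trp53inp1 are lowest in wild type in 2i/LIF and in JupHigh, while Cdkn1a is highest in 2i/LIF, at 192 CPM, and lowest in JupHigh, at 49.9 CPM.

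Trp53 mRNA was lowest in serum/LIF wild type, at 174 CPM (156 to 193). It stood at 223 CPM (209 to 237) in JupHigh, 252 (241 to 263) in 2i/LIF, 271 (209 to 346) in the gel library and 274 (255 to 294) in JupLow. The intervals of 2i/LIF, gel and JupLow overlap, and that of the gel library spans JupHigh as well. As a ratio of the highest to the lowest CPM, Trp53 thus had the narrowest range of the members, apart from Bax.

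Mdm2 was lowest in the same pair of libraries as Ccng1. It was at 79.9 CPM (73.9 to 86.2) in 2i/LIF and 106 (96.7 to 116) in JupHigh. In the others it was higher, at 190 (172 to 210) in serum/LIF wild type, 207 (153 to 274) in gel and 228 (211 to 246) in JupLow. Ccng1 was at 101 CPM (94.5 to 108) in 2i/LIF and 114 (104 to 125) in JupHigh. It was at 262 (201 to 337) in gel, 286 (267 to 306) in JupLow and 336 (311 to 362) in serum/LIF wild type. For both genes the intervals of the low pair lie wholly below those of the rest. Within the rest the order differed, with serum/LIF wild type lowest for Mdm2 and highest for Ccng1. The Mdm2 intervals of 2i/LIF and JupHigh lie apart, as do, narrowly, those of serum/LIF wild type and JupLow.

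Trp53inp1 was at 76.5 CPM (70.7 to 82.7) in 2i/LIF and 85.1 (76.6 to 94.3) in JupHigh, against 129 (114 to 146) in serum/LIF wild type and 161 (147 to 176) in JupLow. The gel library, at 102 CPM (65.1 to 151), overlapped all the others. Phlda3 was at 26.0 CPM (21.4 to 31.3) in JupHigh, 38.7 (34.6 to 43.2) in 2i/LIF, 44.8 (37.4 to 53.3) in JupLow and 64.9 (54.3 to 77.0) in serum/LIF wild type. In gel, 11 UMIs gave 46.6 CPM (23.2 to 83.3), an interval that spans the values of all the others.

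Cdkn1a did not follow Mdm2 and Ccng1. It was highest in 2i/LIF, at 192 CPM (183 to 202), and lowest in JupHigh, at 49.9 (43.4 to 57.0). Wild type in serum/LIF lay between at 121 (107 to 138), above JupLow at 80.6 (70.6 to 91.7). The gel library had 21 UMIs, which gave 88.9 CPM (55.0 to 136).

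Bax ranged from 146 CPM (135 to 158) in JupHigh through 186 (177 to 196) in 2i/LIF and 200 (184 to 217) in JupLow to 221 (201 to 243) in serum/LIF wild type, with 186 (135 to 250) in gel. The interval of JupHigh lies below those of the other plastic libraries. Bbc3 was low throughout, with 21.4 CPM (18.3 to 24.8) in 2i/LIF and 33.2 (28.0 to 39.1) in JupHigh. It was at 33.7 (26.2 to 42.7) in serum/LIF wild type, 38.6 (31.7 to 46.4) in JupLow and 50.8 (26.3 to 88.7) in gel. Apart from 2i/LIF, the intervals overlap one another. Sesn1 was the rarest, at 6.94 CPM (3.79 to 11.6) in serum/LIF wild type and 14.8 (12.3 to 17.7) in 2i/LIF, with the others between. It stayed under 20 CPM in every library, and counts of genes at least 1.5-fold apart therefore cover 8 of the 9 members.

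**Figure D4:**
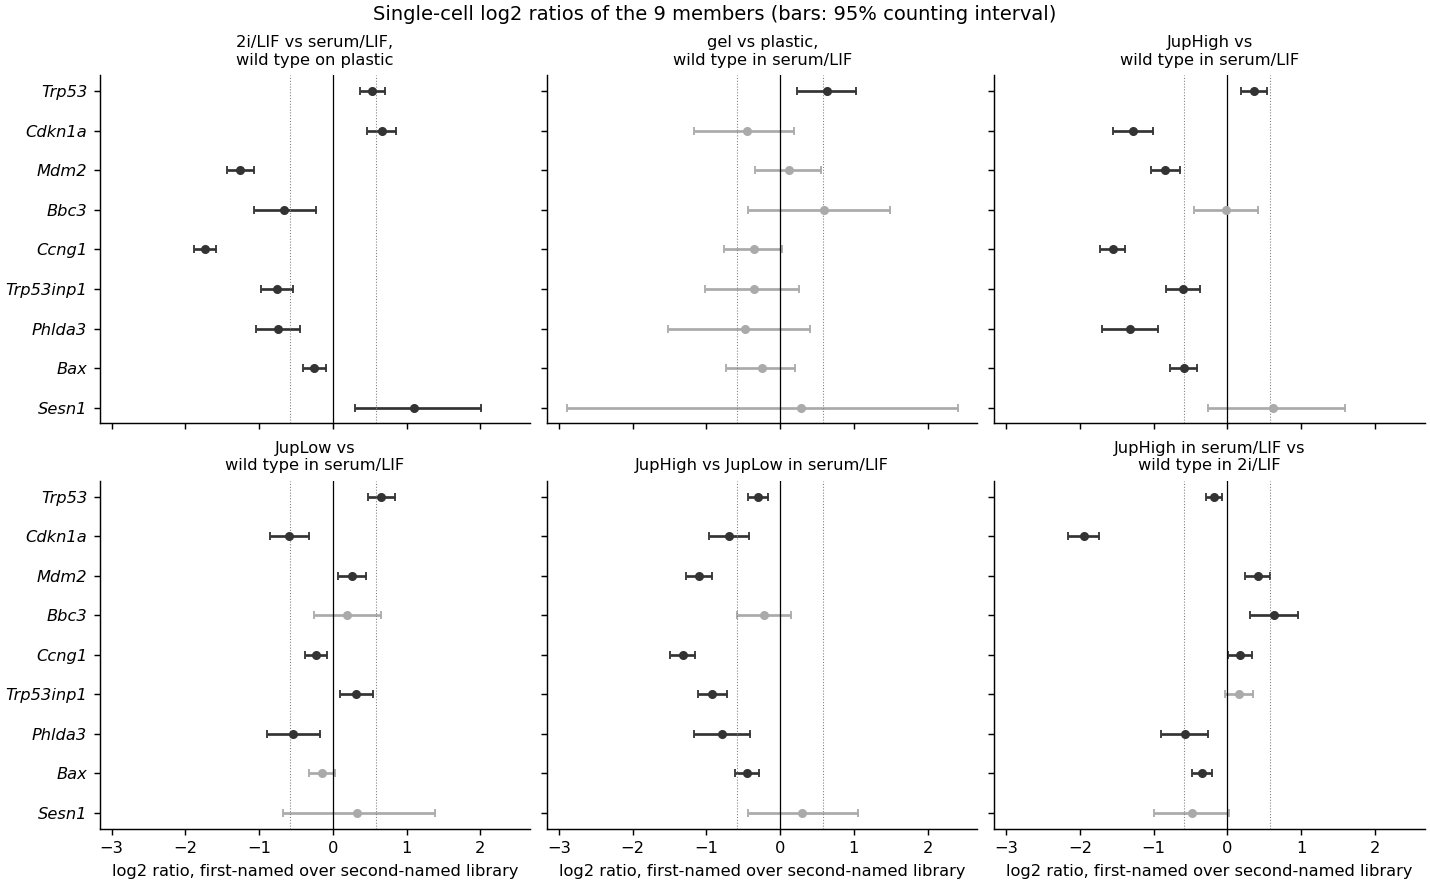
Log2 ratios of the 9 members in 6 single-cell comparisons (horizontal axis, first-named over second-named library), with exact 95% binomial intervals. Grey points have intervals that include 0, and dotted lines mark 1.5-fold. In 2i/LIF against serum/LIF, Mdm2 (-1.25) and Ccng1 (-1.73) lie to the left and Cdkn1a (0.66) to the right, and JupHigh against JupLow has 8 members to the left.

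In wild type on plastic, 2i/LIF against serum/LIF, 5 of 8 members were at least 1.5-fold lower (Mdm2, Bbc3, Ccng1, Trp53inp1 and Phlda3) and 1 was higher (Cdkn1a). Among all 7693 genes that reached 20 CPM in at least 1 of the 2 libraries, 23.6% were that much lower and 19.8% that much higher. The median log2 ratio was -0.70 over the 8 members and -0.02 over all genes. Ccng1 had the largest log2 ratio, -1.73 (-1.88 to -1.58), then Mdm2 with -1.25 (-1.44 to -1.07). Here and below, ranges after a ratio are exact conditional binomial intervals at 95%. Trp53 was at 0.53 (0.37 to 0.70), Cdkn1a at 0.66 (0.47 to 0.86) and Sesn1 at 1.10 (0.30 to 2.01) from 14 UMIs in serum/LIF. TMM scaling moved every log2 ratio of this comparison up by 0.25. Under it 2 members were at least 1.5-fold lower, Mdm2 and Ccng1, and 2 were higher, Trp53 and Cdkn1a, and Bax turned from -0.25 to 0.005. With barcodes of at least 500 UMIs and with every deposited barcode Cdkn1a fell short of 1.5-fold, and its log2 ratio over all alternatives was 0.34 to 1.06. The 8 ES cell markers with a column in both tables summed to 3142 CPM in 2i/LIF and 2157 in serum/LIF. Of these, 4 were at least 1.5-fold higher (Nanog, Zfp42, Esrrb and Dppa5a) and 3 lower (Utf1, Tdgf1 and Dppa4). The neural marker Nes was at 6.52 (4.90 to 8.51) against 59.0 (48.9 to 70.6). The fibroblast marker Col1a1 was at 0.241 (0.029 to 0.872) against 22.8 (16.7 to 30.4). The 6 primitive endoderm markers with a column in both tables summed to 3.74 against 176. The part of these in the ratios was not tested. Of all genes counted, 223 had no column in 1 of the 2 tables and entered as 0. Without them 23.6% of genes were at least 1.5-fold lower and 18.2% higher.

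JupHigh against wild type in serum/LIF had 6 of 8 members at least 1.5-fold lower and 0 higher, where 26.3% of 7371 genes were that much lower and 13.4% higher. The median log2 ratio was -0.72 over the members and -0.17 over all genes. The 6 were Ccng1 at -1.55 (-1.73 to -1.39), Phlda3 at -1.32 (-1.70 to -0.95), Cdkn1a at -1.28 (-1.55 to -1.01), Mdm2 at -0.84 (-1.04 to -0.64), Trp53inp1 at -0.60 (-0.84 to -0.37) and Bax at -0.59 (-0.77 to -0.42). Trp53 itself was at 0.36 (0.18 to 0.54). Trp53inp1 and Bax lie at the edge of 1.5-fold. With TMM scaling, which moved these ratios up by 0.28, 3 remained past it on the lower side (Cdkn1a, Ccng1 and Phlda3), and Trp53 passed it on the higher side. Mitochondrial transcripts made up 14.8% of UMIs in JupHigh and 9.82% to 11.4% elsewhere. The 8 ES cell markers with a column in both tables summed to 3582 CPM in JupHigh against 2157, and of these 4 were at least 1.5-fold higher and 1 lower. Nanog was at 450 CPM (430 to 470) against 82.8 (70.7 to 96.3), and Esrrb at 308 (291 to 325) against 66.4 (55.6 to 78.6). Of the 2 neural markers with a column in both, Nes was at 3.48 CPM (1.95 to 5.74) against 59.0 (48.9 to 70.6). Pax6 went the other way, at 6.73 (4.51 to 9.66) against 1.98 (0.540 to 5.08), with intervals that overlap. The 5 fibroblast markers with a column in both summed to 6.26 CPM against 33.2. Of these only Col1a1 reached 20 CPM in either library, at 0.232 (0.006 to 1.29) against 22.8 (16.7 to 30.4). Dcn, at 0.232 (0.006 to 1.29) against 0 (0 to 1.83), went the other way. So did Pdgfrb, at 1.39 (0.511 to 3.03) against 0.496 (0.013 to 2.76), and for both the intervals overlap. The primitive endoderm markers summed to 17.4 against 240. The part of these differences in the ratios was not tested. Over the 7163 genes with a column in both tables, 26.2% were at least 1.5-fold lower and 11.7% higher.

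JupLow against wild type in serum/LIF had 1 of 8 members at least 1.5-fold higher (Trp53, 0.66, 0.47 to 0.84) and 1 lower (Cdkn1a, -0.59, -0.86 to -0.33). Cdkn1a lies at the edge of 1.5-fold and passed it under 2 of 8 alternatives. It fell short, at -0.56 to -0.34, with barcodes of at least 500 UMIs, with every deposited barcode, without cells that carry a primitive endoderm UMI, with the mean of the cells' own CPM, and with median-of-ratios and TMM scaling. Trp53 fell short, at 0.56, with the mean of the cells' own CPM, where Phlda3 passed on the lower side at -0.61. Over 7377 genes, 10.6% were that much higher and 13.2% lower. Over the 7169 genes with a column in both tables, 8.9% were that much higher and 12.7% lower. The median was 0.02 over the members and 0.002 over all genes. The 8 ES cell markers with a column in both summed to 2144 CPM in JupLow and 2157 in wild type, and Nes was at 86.2 (75.8 to 97.6) against 59.0 (48.9 to 70.6). Mdm2 at 0.26 (0.08 to 0.45) and Trp53inp1 at 0.31 (0.09 to 0.54) were a little higher, but their sign depended on which barcodes were counted. With every deposited barcode Mdm2 was at -0.23 and Trp53inp1 at -0.09, and with barcodes of at least 500 UMIs Mdm2 was at -0.04.

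The 2 Jup lines shared medium and substrate. JupHigh against JupLow had 5 of 8 members at least 1.5-fold lower and 0 higher, where 18.2% of 6953 genes were that much lower and 7.33% higher. All 8 members lay below 0, with a median of -0.74. The median over all genes was below 0 too, at -0.13, and the share of all genes below 0 was not counted. Sesn1, under 20 CPM and so outside the 8, was at 0.30 (-0.44 to 1.06). Ccng1 was at -1.32 (-1.49 to -1.16), Mdm2 at -1.10 (-1.28 to -0.93), Trp53inp1 at -0.92 (-1.12 to -0.72), Phlda3 at -0.79 (-1.16 to -0.41) and Cdkn1a at -0.69 (-0.97 to -0.42). Bax at -0.45 (-0.61 to -0.28) and Trp53 at -0.30 (-0.44 to -0.16) were nearer to 0, and the interval of Bbc3 included 0. Markers and RNA quality differed between the same libraries. The 9 ES cell markers summed to 3935 CPM in JupHigh and 2351 in JupLow, and 5 of them were at least 1.5-fold higher and 1 lower. Nanog was at 450 CPM against 92.4 (81.6 to 104) and Esrrb at 308 against 78.2 (68.3 to 89.1). The 5 neural markers summed to 60.5 against 189, of which Nes made up 3.48 (1.95 to 5.74) against 86.2. Mitochondrial transcripts took 14.8% of UMIs in JupHigh and 11.4% in JupLow. The part of these in the ratios was not tested. Ccng1, Mdm2 and Phlda3 stayed at least 1.5-fold lower under every alternative run for this comparison. With every deposited barcode, with barcodes of at least 500 UMIs and with the mean of the cells' own CPM, 7 of 8 members lay below 0, and Bbc3 was at 0.02, 0.05 and 0.007.

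JupHigh in serum/LIF against wild type in 2i/LIF had 1 of 8 members at least 1.5-fold higher (Bbc3, 0.63, 0.31 to 0.96) and 1 lower, Cdkn1a. Over 6864 genes, 8.48% were that much higher and 19.7% lower. The log2 ratio of Cdkn1a was -1.94 (-2.16 to -1.74), the largest of any member in any of the 6 comparisons, and lay between -2.05 and -1.64 under all alternatives. Ccng1 at 0.18 (0.01 to 0.34) and Trp53inp1 at 0.15 (-0.04 to 0.34) were close to equal, and Mdm2 was at 0.41 (0.24 to 0.58). Phlda3 at -0.58 (-0.90 to -0.26) lay just short of 1.5-fold and passed it under 4 of 8 alternatives. Bbc3 fell to 0.39 with cells of at least 2000 UMIs. The median over the members was -0.01, against -0.13 over all genes. The 9 ES cell markers summed to 3935 CPM in JupHigh and 3387 in 2i/LIF, and mitochondrial transcripts took 14.8% against 9.82% of UMIs. Their part in the ratios was not tested.

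For gel against plastic in serum/LIF, 2 of 8 members were at least 1.5-fold higher and 0 lower, where 17.6% of 7662 genes were that much higher and 23.3% lower. Trp53 was at 0.64 (0.23 to 1.03) and Bbc3 at 0.59 (-0.43 to 1.49), from 64 and 12 UMIs in gel. The median was -0.30 over the 8 members and -0.04 over all genes, and it was -0.09 both with cells of at least 2000 UMIs and without cells that carry a primitive endoderm UMI. These counts depended on which barcodes were counted. Over the 7444 genes with a column in both tables, 16% were at least 1.5-fold higher and 23.2% lower. With barcodes of at least 500 UMIs, 0 members were higher and 1 was lower, Cdkn1a at -1.20. With every deposited barcode 0 were higher and 2 lower, Cdkn1a at -1.61 and Phlda3 at -0.68, and with the mean of the cells' own CPM 0 were higher and 1 lower, Trp53inp1 at -0.59. With cells that carry a primitive endoderm UMI left out, 0 of 8 passed 1.5-fold in either direction. The ratio of Trp53 lay between 0.50 and 0.90 under all alternatives, and that of Mdm2 between -0.40 and 0.49. The 8 ES cell markers with a column in both tables summed to 2951 CPM in gel against 2157. Of the 5 neural markers, 2 have a column in both, Pax6, with 0 UMIs in gel, and Nes, at 114 (75.3 to 166) against 59.0 (48.9 to 70.6). Their part in the ratios was not tested. The intervals of the 8 members other than Trp53 included 0, Mdm2 at 0.12 (-0.34 to 0.56) and Ccng1 at -0.36 (-0.76 to 0.02) among them. The 2i/LIF bulk values for these were -1.12 and -0.53. The bulk and single-cell data differ in line, medium and method, and the difference was not tested.

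The other lists gave the following counts of genes at least 1.5-fold apart, over the genes that reached 20 CPM. Arrest targets were lower in 2i/LIF than in serum/LIF for 4 of 6, in JupHigh than in JupLow for 4 of 6, and in JupHigh than in wild type for 3 of 6, with 0 higher in each. Their median log2 ratios were -1.82, -1.22 and -0.83. Over all genes, 23.6%, 18.2% and 26.3% were that much lower in these 3 comparisons, and 19.8%, 7.33% and 13.4% higher. In gel against plastic 17.6% of all genes were higher and 23.3% lower. In JupLow against wild type these shares were 10.6% and 13.2%, and in JupHigh against 2i/LIF 8.48% and 19.7%. These shares are the background for every list of this paragraph. Of the arrest targets, 2 of 6 were higher and 2 lower in gel against plastic. In JupLow against wild type 0 of 6 were either, and in JupHigh against 2i/LIF 1 of 5 was higher and 0 lower. Plk2 was at 22.7 CPM (19.6 to 26.2) in 2i/LIF and 21.3 (17.2 to 26.2) in JupHigh, against 112 (97.4 to 127) in serum/LIF wild type and 115 (103 to 128) in JupLow. Apoptosis targets were lower in the same 3 comparisons for 5 of 9, 4 of 8 and 7 of 9, and higher for 1, 0 and 1. In the other three comparisons, taken in the order above, 3 of 9, 1 of 9 and 1 of 6 were lower and 0, 1 and 1 higher. Of the regulators, 4 of 13 were higher and 1 lower in 2i/LIF, and 4 of 13 higher and 1 lower in JupHigh against wild type. In gel against plastic 1 was higher (Kat5, 5 UMIs in gel) and 3 lower (Mdm4, Atm and Cdkn2a, with 9, 4 and 3 UMIs in gel). Some gel counts of other lists rest on as few, such as 1 UMI for Pidd1, 6 for Perp and 5 for Xpc. In JupLow against wild type 1 regulator was higher and 0 lower. JupHigh had 2 higher and 1 lower against JupLow, and 1 higher and 1 lower against 2i/LIF. Kat5, an acetyltransferase, had 1 UMI in serum/LIF wild type and 21.2 to 27.4 CPM elsewhere, and was counted as higher in all 4 comparisons with that table, whose counting appears to differ. Without it 3 regulators were higher in 2i/LIF, 3 in JupHigh, 0 in gel and 0 in JupLow. Of the DREAM-repressed genes, 1 of 10 was higher and 0 lower in 2i/LIF and in JupHigh against wild type, and likewise in JupHigh against JupLow. In gel against plastic 0 were higher and 1 lower, and in the remaining pair of comparisons 0 of 10 were either. Of the targets in repair and metabolism, 2 of 9 were higher (Tigar and Ak1) and 5 lower in 2i/LIF against serum/LIF, 1 of 9 higher and 5 lower in JupHigh against wild type, and 1 of 9 higher and 4 lower in JupHigh against JupLow. In gel 1 of 10 was higher and 4 lower, in JupLow against wild type 0 of 9 were higher and 2 lower, and in JupHigh against 2i/LIF 0 of 8 were higher and 4 lower. Of 4 genes of the BCL2 family, 1 was higher and 3 lower in 2i/LIF, 1 higher and 1 lower in JupHigh against wild type, and 0 higher and 2 lower in JupHigh against JupLow. In gel 0 were either, in JupLow against wild type 1 was higher, and in JupHigh against 2i/LIF 2 were higher, with 0 lower in each.

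Mcl1 was at 256.03 CPM (245 to 267) in 2i/LIF, 432 (403 to 461) in serum/LIF wild type, 478 (394 to 575) in gel, 581 (558 to 604) in JupHigh and 713 (683 to 745) in JupLow. It therefore did not share the low level of JupHigh that Mdm2 and Plk2 had. Sesn2 was at 178 CPM (160 to 197) in serum/LIF wild type, far above JupLow at 33.4 (27.0 to 40.7), JupHigh at 33.9 (28.6 to 39.8), 2i/LIF at 57.5 (52.4 to 62.9) and gel at 63.5 (35.5 to 105).

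Within the serum/LIF libraries on plastic, Cdkn1a was higher in cells that carried a UMI of a primitive endoderm marker. The 7 markers summed to 240 CPM in serum/LIF wild type, 67.7 in gel, 32.7 in JupLow, 17.4 in JupHigh and 3.74 in 2i/LIF. Gata6 has no column in the 2i/LIF table. In serum/LIF wild type there were 113 such cells of 725, and Cdkn1a stood at 270 CPM (217 to 332) in them and 92.4 (78.5 to 108) in the other 612. Their median depths were 2345 and 2375 UMIs. JupLow had 69 such cells of 1200, with 177 CPM (125 to 243) against 72.8 (62.9 to 83.8), at median depths of 2758 and 2157 UMIs. JupHigh had 47 of 2153, with 207 (126 to 319) from 20 UMIs against 46.3 (40.01 to 53.2), at median depths of 1751 and 1904.5 UMIs. The most Cdkn1a UMIs in a single JupHigh cell was 7, and the intervals do not cover spread over cells. In 2i/LIF, 30 of 2889 cells carried a marker UMI. Their Cdkn1a, at 177 (112 to 265) from 23 UMIs, had an interval that overlapped the 192 (183 to 202) of the other cells, and their median depth was higher, at 4399.5 against 2436 UMIs. The part of depth in these values was not tested. In the gel library 6 of 112 cells carried a marker UMI, too few to compare. The mix of markers that define marker-positive cells differed between libraries. Dab2 and Gata6 had 133 and 129 UMIs in serum/LIF wild type, 58 and 16 in JupLow, and 10 and 19 in JupHigh. The part of marker-positive cells in each difference between libraries is shown only by the values without them, given below.

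**Figure D5:**
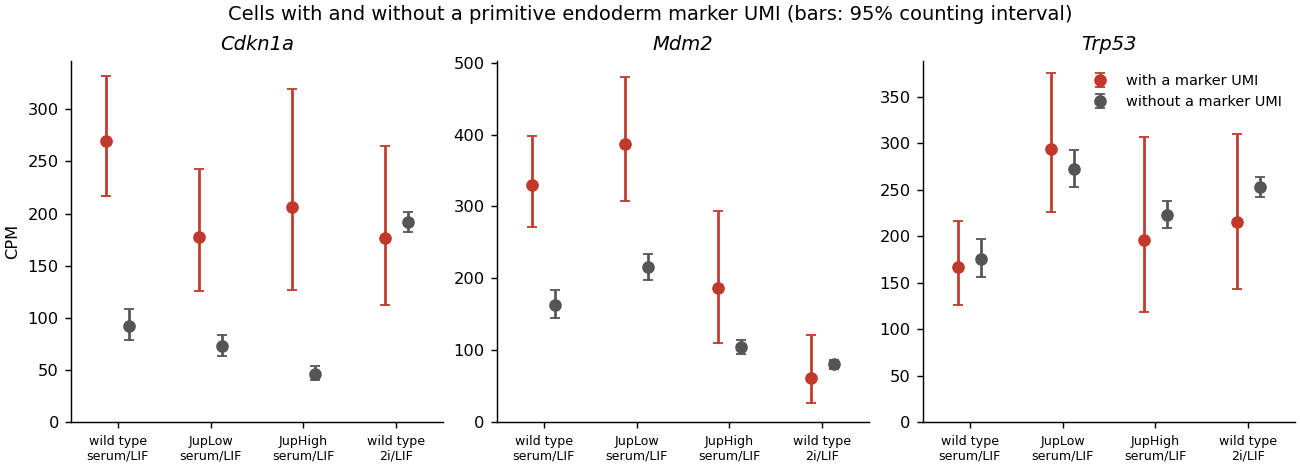
CPM (vertical axis, starting at 0) of Cdkn1a, Mdm2 and Trp53 in cells with (red) and without (grey) a UMI of 7 primitive endoderm markers, in 4 libraries, with exact 95% Poisson intervals. Cdkn1a is higher in marker-positive cells in the 3 serum/LIF libraries shown, for example 270 against 92.4 in wild type, and not in 2i/LIF, while the intervals of Trp53 overlap in every library.

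Other members had intervals that lay apart in fewer libraries. Mdm2 was at 330 CPM (271 to 398) against 163 (144 to 183) in serum/LIF wild type and 387 (308 to 480) against 215 (198 to 233) in JupLow. Phlda3 was at 112 (78.9 to 154) against 55.7 (45.0 to 68.2) in serum/LIF wild type, and at 88.5 (53.3 to 138) against 41.3 (33.9 to 49.8) in JupLow. Ccng1 lay apart in JupLow, at 410 (329 to 505) against 276 (256.3 to 297), while in serum/LIF wild type its intervals overlapped, at 409 (343 to 484) against 322 (295 to 350). Trp53inp1 lay apart in JupLow as well, at 247 (185 to 323) against 154 (139 to 170), and overlapped in serum/LIF wild type, at 112 (78.9 to 154) against 133 (116 to 151). Bax lay apart in 2i/LIF, at 292 (206 to 400) against 184 (175 to 194). The Trp53 intervals overlapped, at 167 (126 to 217) against 175 (156 to 197) in serum/LIF wild type and 294 (226 to 376) against 273 (253 to 293) in JupLow. Without the marker-positive cells, the Cdkn1a log2 ratio of 2i/LIF over serum/LIF was 1.06, larger than the 0.66 with them. That of JupLow over wild type was -0.34 in place of -0.59, and that of gel over plastic 0.01 in place of -0.45. That of JupHigh over wild type was -0.998 in place of -1.28. Of the members past 1.5-fold, 4 ratios fell short of it without these cells: Phlda3 in 2i/LIF over serum/LIF, Cdkn1a in JupLow over wild type, and Trp53 and Bbc3 in gel over plastic, at 0.58 and 0.56. This way of leaving out cells was chosen after the data were seen.

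Most cells had no UMI of a given member once thinned to 1000 UMIs, although 51.2% of unthinned serum/LIF wild-type cells had a Ccng1 UMI. After thinning each cell to 1000 UMIs, 16.8% of cells in 2i/LIF had a Cdkn1a UMI (15.4% to 18.2%, exact binomial interval at 95%), 9.93% in serum/LIF wild type (7.85% to 12.3%), 6.67% in JupLow (5.32% to 8.23%) and 4.32% in JupHigh (3.5003% to 5.27%). Unthinned, the same 4 libraries gave 36.8%, 19.9%, 15.1% and 8.78%, while their median UMIs per cell were 2465, 2361, 2193.5 and 1902. For Ccng1 the thinned shares were 30.9% (27.5% to 34.4%) in serum/LIF wild type, 24.5% (22.1% to 27.0%) in JupLow, 20.5% (13.5% to 29.2%) in gel, 11.3% (9.98% to 12.7%) in JupHigh and 9.48% (8.44% to 10.6%) in 2i/LIF. These thinned shares kept the order of the CPM values, but at other depths the order differed in places, as for Ccng1. Unthinned, 23.8% of cells in 2i/LIF and 18.997% in JupHigh had a Ccng1 UMI, and thinned to 2000 UMIs 19.3% and 17.1% did, where the CPM is lower in 2i/LIF. Bbc3 was seen in 2.18% (1.68% to 2.78%) to 4.46% (1.47% to 10.1%) of thinned cells, and Sesn1 in 0.552% (0.151% to 1.41%) to 1.30% (0.866% to 1.87%).

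No cell type that lacks p53 or its targets was present to set the level of free RNA. Barcodes under 500 UMIs, taken to hold mainly free RNA, carried every member but Sesn1 in each library where they could be read, at levels that in places lay near those of cells and in places did not. In serum/LIF wild type they held Cdkn1a at 158 CPM, against 121 in cells, and Mdm2 at 235 against 190. In JupHigh they held Cdkn1a at 107 against 49.9 in cells, Mdm2 at 107 against 106 and Ccng1 at 119 against 114. In JupLow they held Cdkn1a at 127 against 80.6, and were lower than cells for Mdm2 at 150 against 228, Ccng1 at 178 against 286 and Trp53inp1 at 82.6 against 161. In gel they held Cdkn1a at 16.4 against 88.9, from 3 UMIs, and Mdm2 at 131 against 207, from 24. The 2i/LIF table has only 2 such barcodes, and so free RNA could not be measured there. The part of free RNA in the shares was not tested.

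The thinned UMIs of most members had variance-to-mean ratios near 1, the value that counting alone would give. With so few thinned UMIs per cell the ratio stays near 1 even where cells differ. It therefore cannot show an even spread, and no error was computed for it. Cdkn1a in serum/LIF wild type had a ratio of 1.28 from 85 UMIs, against 1.03 in 2i/LIF from 539, and up to 12 UMIs in a single unthinned cell. Mdm2 in JupLow had 1.32 from 235 UMIs, against 1.02 in 2i/LIF from 214, with up to 13 in a single cell. Ccng1 reached 1.21 in serum/LIF wild type and 1.23 in JupLow. The highest ratios were in the gel library, 1.73 for Mdm2 and 1.52 for Cdkn1a, from only 22 and 10 UMIs. Trp53 lay between 1.03 and 1.16 in all 5 libraries.

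The genes whose pattern over the 6 bulk and 5 single-cell libraries was nearest to that of Trp53 and Cdkn1a were found by the root mean square difference of centred log2 levels, over 6002 genes. For Trp53 these were Nop9 (0.11), Ostc (0.12) and Srp9 (0.13), against a median of 0.39 for all genes. For Cdkn1a they were Cst3 (0.14), Ly6e (0.22) and Cib1 (0.22), against a median of 0.55. Cst3, which encodes the secreted protease inhibitor cystatin C, was at 187 CPM (178 to 197) in 2i/LIF, 131 (116 to 148) in serum/LIF wild type, 88.9 (55.0 to 136) in gel, 84.8 (74.5 to 96.1) in JupLow and 58.9 (51.9 to 66.6) in JupHigh, the same order as Cdkn1a. In bulk it was higher in gel, by 0.38 on the log2 scale (SE 0.12), and limma gave an adjusted p of 0.0156. The 11 libraries share lines, depth and processing, and these likenesses are a description.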

How the data were processed

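The deposited bulk table holds a signal: gene counts that the authors scaled for depth, as judged from the values, which are whole multiples of a step per library (100% whole within 0.01 reads). The deposited single-cell tables hold whole UMI counts. Per the submitters' processing notes the tools were FastQC, STAR, featureCounts, DESeq2 and Scanpy, with builds mm10 and GRCm38. Their roles and whether counting used strand are not given in the sources used here. Columns of the bulk table named for gel and for plastic at once were taken as plastic. For 1 plastic library the title and the description disagree on its number, and the title was used.

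Bulk groups were compared with limma 3.58.1 (R 4.3.3) on log2(value + 0.5) with an intensity trend, for genes whose recovered reads passed edgeR's filter. Tested on simulated data of the bulk comparison (7878 genes, 200 changed), it called 97% of genes changed 4-fold and 72.5% of those changed 2-fold. The simulation gave each gene the dispersion of the trend at its level, without further spread between genes. It also changed far fewer genes than the 2906 called in the data. These rates may therefore not carry over to the data. edgeR 4.0.16 and DESeq2 1.42.0 on recovered reads were alternatives. Replicate libraries differed by more than sampling noise (chi-square per degree of freedom 1.58 to 2.2).

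A cell is a barcode of 1000 or more UMIs without a run of 8 G at an end. Columns without a gene name held 0.00509% to 0.499% of UMIs and were left out. A gene without a column in a table entered counts over all genes as 0. Doublets were not called and no maximum was set. Precision is set by counting: intervals cover counting error only. Exons are from GENCODE M21. Named genes beyond the members were, per pathway list, the 2 genes that rose and the 2 that fell furthest, if called and without overlap of the groups, and for likeness the 3 nearest. The members and all lists were chosen with earlier results of these data known.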

Additional observations from a re-analysis of the deposited data

How the results depend on the processing

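Under 17 alternative settings of the bulk fit the members kept their direction in 135 of 135 values, and 4 calls were lost, all of Bax. Members called numbered 4, or 3 with Bax lost or with at least 10 reads required in every library, where Sesn1 was not tested. With any single library left out the fit gave 2361 to 2833 genes called and 3 to 4 members, against 2906 and 4. Whether the replicate numbers pair the libraries is not settled here. Same-numbered deviations from the group means correlated at -0.0522, 0.0159 and 0.0244, and the others at -0.0641 to 0.0499. Counting noise takes part in these deviations and can hide a pairing. The fit with a replicate block called 2988 genes and the same number of members, 4.

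Of 432 single-cell ratios of members, 21 took another sign than the value reported. In 17 of these the interval of the reported value included 0: Bbc3 in JupHigh over wild type (up to 0.26), over JupLow (up to 0.05) and in JupLow over wild type (down to -0.12), Mdm2, Sesn1 and Cdkn1a in gel over plastic (to -0.40, -1.36 and 0.01), and Sesn1 and Bax in JupLow over wild type (to -0.33 and 0.03). In the other 4 it did not. Those were Bax in 2i/LIF over serum/LIF (0.0048, TMM), Mdm2 in JupLow over wild type (-0.044 with 500 UMIs, -0.232 with every barcode) and Trp53inp1 there (-0.093, every barcode). The cause was not tested. The JupHigh over wild type median of -0.72 became -0.52 with median-of-ratios and -0.44 with TMM scaling. In JupLow over wild type the median of 0.02 ranged from -0.19 to 0.20, in JupHigh over 2i/LIF that of -0.01 from -0.07 to 0.09, and in gel over plastic that of -0.30 from -0.36 to -0.09. A 2-fold limit gave 2070, 1784, 1690, 1010, 770 and 695 genes for 2i/LIF over serum/LIF, gel over plastic, JupHigh and JupLow over wild type, JupHigh over JupLow and JupHigh over 2i/LIF, in place of 3341, 3138, 2923, 1756, 1772 and 1937. The median share of cells with a UMI over members and libraries was 9.48% thinned to 1000 UMIs, and rose with depth to 17.1% thinned to 2000 and 18.2% unthinned. Depth limits Bbc3 and Sesn1 everywhere, and all members in the gel library of 112 cells.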
